A study of Mus musculus with 6 samples.

Results

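The major urinary protein (Mup) family was followed gene by gene in mouse liver. Members were all genes whose GRCm38 symbol starts with Mup followed by a digit or by -ps, which gave 49 of the 55487 genes in the deposited tables. The annotation calls 22 of them protein coding and 27 pseudogenes. Of the 49, 48 lie on chromosome 4 between 59956804 and 62150863 (GRCm38), a span of 2.19 Mb, and Mup-ps22 lies on chromosome 11. In this span 21 coding genes are on the minus strand and Mup6 is on the plus strand. The libraries hold poly(A) RNA from 20 mg pieces of frozen liver, 1 piece from each of 6 males of 8 weeks. The 3 SCADD animals, of the substrain BALB_cBYJ, carry short-chain acyl-CoA dehydrogenase deficiency, and the 3 WT animals were BALB_cJ. All were kept on standard chow under a 12/12 h light-dark cycle. The series title asks how this enzyme deficiency relates to histone acylation and transcription. The enzyme deficiency and other differences between the substrains cannot be told apart, because each genotype is also a substrain.

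MUPs are small secreted proteins of the lipocalin fold, a barrel that holds small hydrophobic ligands. The mouse liver makes them in large amounts under growth hormone, androgen and thyroid hormone control, more in males than in females, and they pass through the blood into urine, where they bind and slowly release volatile pheromones. MUP20, also called darcin, is itself a pheromone by which females recognise a male. The family arose by recent duplication, so many copies are nearly identical in sequence. BALB/cJ mice are known to carry an insertion in Zhx2, a gene for a zinc finger and homeobox transcription factor that acts in liver, which lowers its expression.

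The gene totals of the libraries were 23912744, 20338645 and 16948986 unique reads in SCADD replicates 1, 2 and 3, and 26423882, 23991104 and 27148756 in WT replicates 1, 2 and 3. Unmapped reads made up 25.1%, 27.4% and 36.6% in SCADD replicates 1, 2 and 3 and 13.6%, 16.4% and 13.7% in WT replicates 1, 2 and 3, so the groups did not overlap and SCADD replicate 3 stood apart. Hepatocyte markers (7 of 7 detected) summed to 42555 to 83847 TPM in SCADD and 62234 to 85766 TPM in WT, with the lowest sum in SCADD replicate 3. Markers of sinusoidal endothelium (4 genes) summed to 52.4 to 73.4 TPM in SCADD and 102 to 115 TPM in WT. Those of B and plasma cells (3 genes) summed to 6.47 to 11.9 TPM in SCADD and 3.06 to 4.69 TPM in WT. Those of pancreas (2 genes, 1 of them at 0 in every library) summed to 34.9 to 41.3 TPM in SCADD and 63.7 to 71 TPM in WT, and those of cholangiocytes (4 genes) to 0.43 to 1.1 TPM in SCADD and 1.25 to 1.99 TPM in WT. The sums for Kupffer cells, stellate cells, skeletal muscle and adipocytes overlapped between the groups. The part of the 4 lists that did not overlap, and of the unmapped share, in the Mup values was not tested. TPM is RSEM's level, scaled by transcript length and to the same total in each library. In bulk tissue fewer cells of a type and less RNA per cell cannot be told apart.

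The coding sequences fall into alike and unlike copies. They were read from GENCODE transcripts, 534 to 552 bases per gene without the stop codon. Mup1, Mup2, Mup7 to Mup19 and Mup22 form a set of 16 copies that were 98.3% to 100% identical to each other (median 99.3% over 120 pairs). Mup3, Mup4, Mup5, Mup6, Mup20 and Mup21 were 85.2% to 91.5% identical to those 16. Mup9 and Mup18 had 0 differences over 540 aligned coding bases. The 60-base stretch shown here lies on the minus strand of chromosome 4 (GRCm38). It was chosen as the one within a single exon that differs most between Mup7 and Mup3. Copies with the same letters here can differ elsewhere. Capitals mark bases that differ from Mup7. Mup22, Mup17 and Mup9 have the Mup7 letters throughout, and Mup1 has the Mup12 letters.
Mup7: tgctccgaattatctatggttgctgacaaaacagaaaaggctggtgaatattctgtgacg
Mup12: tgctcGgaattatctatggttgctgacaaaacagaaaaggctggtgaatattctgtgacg
Mup20: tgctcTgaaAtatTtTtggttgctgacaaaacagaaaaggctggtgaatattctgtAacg
Mup3: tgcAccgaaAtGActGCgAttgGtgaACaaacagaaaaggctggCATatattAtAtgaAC
Mup21: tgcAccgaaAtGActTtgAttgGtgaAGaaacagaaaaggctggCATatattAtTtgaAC
The stretches lie at chr4:60068902-60068961 (Mup7), chr4:60739806-60739865 (Mup12), chr4:62052637-62052696 (Mup20), chr4:62085960-62086019 (Mup3) and chr4:62149355-62149414 (Mup21). Mup12 differed from Mup7 at 1 of 60 bases, Mup20 at 5, Mup3 at 17 and Mup21 at 16.

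Promoter windows of RefSeq, 250 bases before to 50 after each gene's annotated start (GRCm38.p6), were at hand for 14 of the 22 coding members. Not matched were Mup1, Mup5, Mup8, Mup12, Mup13, Mup16, Mup20 and Mup22. In 13 of the 14 windows, all but that of Mup7, the letters CCCATA were followed on the gene's strand by TATATAA, and the windows differed most in length between these letters. Of 32851 mouse promoter windows, 8.12% held CCCATA and 3.24% held TATATAA on either strand, and 16 held the first within 90 bases before the second on the gene's strand. The 8 sequences shown set that stretch, given in capitals, side by side in 4 of the alike copies (Mup2, Mup9, Mup17 and Mup18) and in the 4 matched unlike ones (Mup4, Mup6, Mup3 and Mup21).
Mup2: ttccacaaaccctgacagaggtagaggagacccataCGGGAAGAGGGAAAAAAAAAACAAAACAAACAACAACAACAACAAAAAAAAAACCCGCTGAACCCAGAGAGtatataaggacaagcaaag
Mup9: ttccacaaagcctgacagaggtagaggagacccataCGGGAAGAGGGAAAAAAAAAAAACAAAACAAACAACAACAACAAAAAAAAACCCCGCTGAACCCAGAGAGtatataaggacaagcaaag
Mup17: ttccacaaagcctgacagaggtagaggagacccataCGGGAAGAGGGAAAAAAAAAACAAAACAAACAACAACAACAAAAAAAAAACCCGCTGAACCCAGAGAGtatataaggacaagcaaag
Mup18: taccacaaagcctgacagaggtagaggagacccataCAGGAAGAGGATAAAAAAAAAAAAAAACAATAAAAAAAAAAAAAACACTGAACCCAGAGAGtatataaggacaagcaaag
Mup4: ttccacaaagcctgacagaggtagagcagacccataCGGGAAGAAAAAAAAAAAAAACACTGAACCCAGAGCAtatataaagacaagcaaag
Mup6: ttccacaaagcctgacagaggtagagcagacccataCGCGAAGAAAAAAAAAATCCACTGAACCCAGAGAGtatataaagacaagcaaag
Mup3: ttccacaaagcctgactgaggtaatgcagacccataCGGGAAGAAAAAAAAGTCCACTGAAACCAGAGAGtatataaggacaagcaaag
Mup21: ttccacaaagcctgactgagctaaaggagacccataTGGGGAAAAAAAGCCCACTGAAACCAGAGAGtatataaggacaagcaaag
They lie at chr4:60139865-60139990, chr4:60421965-60422089, chr4:61595839-61595961, chr4:61674104-61674219, chr4:59960678-59960769, chr4:62087310-62087398 and chr4:62150831-62150916 on the minus strand and at chr4:60003381-60003470 on the plus strand (Mup6). The capital stretch, rich in A, measured 59 to 71 bases in all 9 matched copies of the alike set other than Mup7. It measured 37 bases in Mup4, 35 in Mup6, 34 in Mup3 and 31 in Mup21. A match of letters describes these windows and does not show a binding site.

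In liver, the makeup of the family differed between the groups. In SCADD livers RNA was assigned to many copies of the reference genome, led in TPM by Mup3, Mup9, Mup22 and Mup1. The family level of WT livers was nearly all Mup3, Mup20 and Mup21. Summed over the 49 members, the level was 73684, 85257 and 148379 TPM in SCADD replicates 1, 2 and 3 and 36013, 32278 and 41585 TPM in WT replicates 1, 2 and 3. Every SCADD library lay above every WT library. The means were 102440.0 ± 40203 TPM in SCADD and 36625 ± 4684 TPM in WT (SD, n = 3 each), a ratio of 2.8. The family thus took 7.37%, 8.53% and 14.8% of all TPM in SCADD libraries and 3.6%, 3.23% and 4.16% in WT libraries. Without SCADD replicate 3 the difference of the means was 42845 TPM, against 65815 TPM with it.

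The other deposited measure gave another total. STAR's gene counts hold only reads that map to 1 place, whereas RSEM shares out reads that map to several. Summed unique reads, scaled to the library's gene total (CPM), were 20035, 21445 and 47347 CPM in SCADD replicates 1, 2 and 3 and 26871, 24358 and 32511 CPM in WT replicates 1, 2 and 3. Here SCADD replicates 1 and 2 lay below all WT libraries and SCADD replicate 3 above them. The means were 29609 ± 15378 CPM in SCADD and 27913 ± 4176 CPM in WT (SD, n = 3 each), and the difference of 1696 turned to -7173 without SCADD replicate 3. For every 100 RSEM reads of the family there were 45.4, 43.3 and 42.8 unique reads in SCADD libraries and 108, 111 and 108 in WT libraries. RSEM placed 576497, 570023 and 1070911 more reads in the family than the unique counts held in SCADD replicates 1, 2 and 3, which equals 13.3%, 16.4% and 22.9% of the reads that STAR reported as multi-mapped there. In WT libraries the difference was -52485, -58972 and -67604 reads, so that RSEM placed fewer reads there than the unique counts held. Both measures place reads on the copies of the reference genome, which is not of a BALB/c strain. Whether the 2 substrains carry these copies, or the same copies as each other, was not tested.

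**Figure D1:**
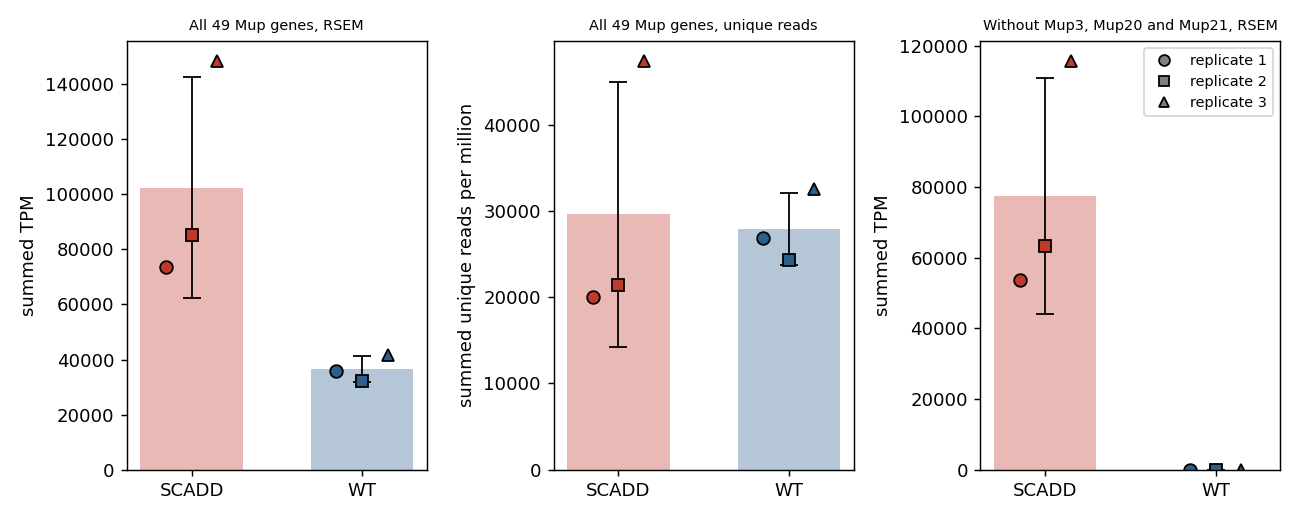
Summed level of the Mup family per library. The left panel gives TPM and the middle panel unique CPM for all 49 members, and the right panel gives TPM without Mup3, Mup20 and Mup21. Points are libraries, bars means and error bars SD of 3 libraries. In TPM all SCADD points lie above the WT points. In unique reads SCADD replicates 1 and 2 lie below them. In the right panel WT is at 6.58 to 8.39 TPM.

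Outside Mup3, Mup20 and Mup21 the groups were apart by both measures. The other 46 members summed to 53748, 63173 and 115616 TPM in SCADD and 6.6, 6.58 and 8.39 TPM in WT. In unique reads they had 4457, 4739 and 15773 CPM in SCADD and 7.19, 5.67 and 8.95 CPM in WT. The SCADD values exceeded the WT values by more than 100-fold in each pair of libraries. Of the 22 coding members, 18 reached 10 TPM in at least 1 SCADD library and 3 did in at least 1 WT library. The 10 that exceeded 1000 TPM in all SCADD libraries were Mup3, Mup9, Mup22, Mup1, Mup7, Mup12, Mup2, Mup17, Mup10 and Mup14. In WT these were Mup3 and Mup20. The order of the copies in SCADD depended on the measure. Mup3 came first in each, followed by Mup9, Mup22 and Mup1 in TPM, by Mup22, Mup1 and Mup7 in RSEM reads and by Mup12, Mup7 and Mup9 in unique reads.

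Of the 49 members, 17 were called higher in SCADD livers (edgeR quasi-likelihood test on unique counts, Benjamini-Hochberg adjusted p under 0.05 over 13498 genes). They were 14 coding genes and 3 pseudogenes, and 0 members were called lower. Among all tested genes 4.22% were called higher and 2.8% lower, 7.02% in either direction. Only 24 members passed the filter on low counts, most of them through their SCADD reads, so the count describes those members and does not stand for the family. The other 7 tested members were not called, and 25 were not tested. In unique CPM the groups did not overlap, with SCADD higher, in 19 of the 24 tested members, against 13.8% of all tested genes. They did not overlap, with SCADD lower, in 1 of the 24, Mup-ps19, against 12% of all tested genes. By edgeR at an unadjusted p under 0.05 there were 21 members, against 3058 of all 13498 tested genes in either direction. Of the 21 members 2, Mup20 and Mup-ps19, were lower in SCADD. DESeq2 and limma-voom called 0 members lower as well.

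Mup3 had the highest level of all members in every library. It measured 18514, 20859 and 29941 TPM in SCADD replicates 1, 2 and 3 and 32028, 30172 and 36511 TPM in WT replicates 1, 2 and 3. SCADD values lay below all WT values in TPM, SCADD replicate 3 narrowly so. In unique CPM the groups overlapped, at 14907, 16151 and 29842 in SCADD and 25282, 23503 and 30383 in WT. Among all genes it ranked 8, 8 and 8 by TPM in the SCADD libraries and 7, 7 and 6 in the WT libraries. Its unique counts were 356478, 328486 and 505787 in SCADD and 668042, 563852 and 824851 in WT. Its difference on the log2 scale, -0.38 (SE 0.30, edgeR adjusted p = 0.507), was not called. Without SCADD replicate 3 it was -0.82 (edgeR adjusted p = 0.0164), which passed the threshold. In unique CPM Mup3 made up 70.9% ± 6.85 of the family in SCADD and 94.7% ± 1.6 in WT (SD, n = 3 each), and of its TPM 23.3% ± 2.69 in SCADD and 90.1% ± 3 in WT.

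Mup20, which encodes darcin, measured 973, 829 and 1726 TPM in SCADD replicates 1, 2 and 3 and 3493, 1795 and 4508 TPM in WT replicates 1, 2 and 3. Each SCADD value was below each WT value in TPM, though SCADD replicate 3 came close to WT replicate 2. Its unique counts were 8251, 5584 and 12727 in SCADD and 32730, 15092 and 46028 in WT, and in unique CPM SCADD replicate 3 (751) lay above WT replicate 2 (629). The log2 fold change was -1.36 (SE 0.51, edgeR adjusted p = 0.172), which was not called. Mup21 measured 449, 395 and 1096 TPM in SCADD and 485, 304 and 557 TPM in WT. The groups overlapped, and its difference on the log2 scale, 0.71 (SE 0.56, edgeR adjusted p = 0.526), was not called. It turned to -0.17 without SCADD replicate 3. For Mup21, whose TPM shares were 0.604% ± 0.138 of the family in SCADD and 1.21% ± 0.232 in WT, STAR counted 154 unique reads per 100 RSEM reads in SCADD and 155 in WT.

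**Figure D2:**
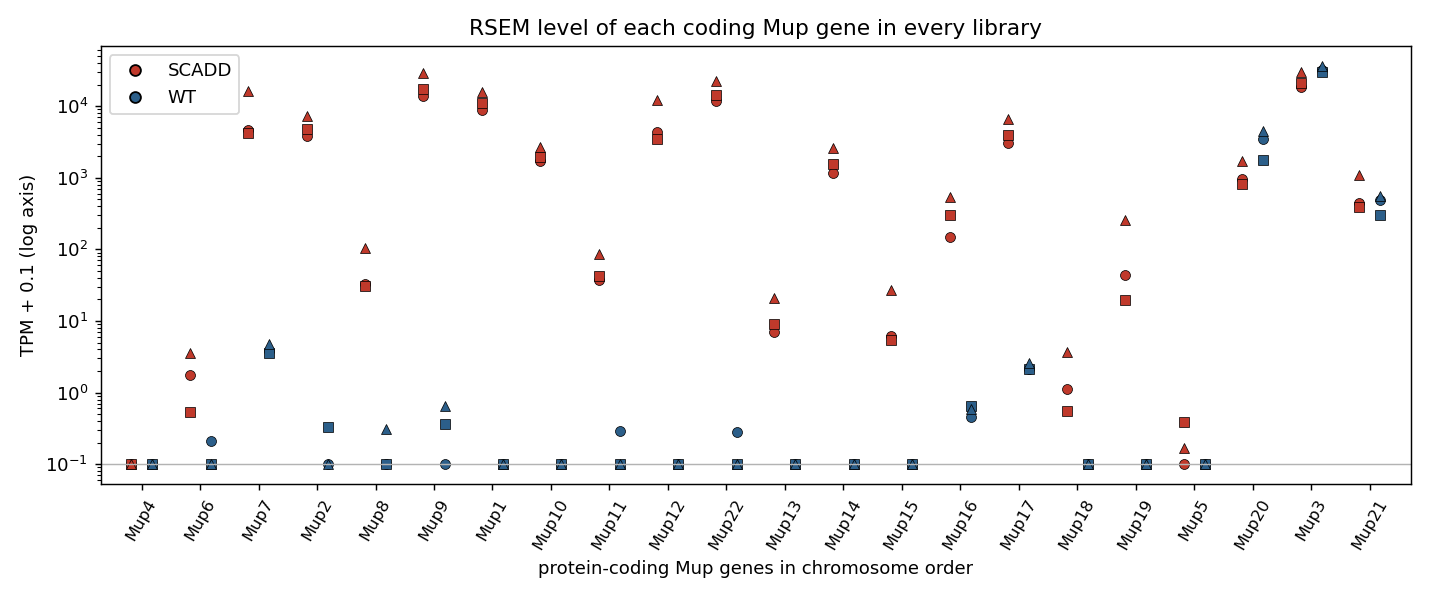
RSEM level of the 22 coding members in chromosome order, with SCADD in red left of WT in blue. The vertical axis is log-scaled TPM + 0.1, circles, squares and triangles are replicates 1, 2 and 3, and the grey line marks 0 TPM. Most copies between Mup7 and Mup19 lie far higher in SCADD than in WT, while Mup20, Mup3 and Mup21 are well above 100 TPM in both.

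Within the set of 16 alike copies, 4 held most of the unique reads. Mup12 had 39582, 25072 and 104037 unique counts in SCADD replicates 1, 2 and 3 and 0 in all WT libraries. That is at least 71265-fold higher in CPM against a floor of 3 counts over the WT group (edgeR adjusted p = 0.0206). In TPM Mup12 measured 4384, 3499.8 and 12003 in SCADD and 0 in WT. The call was lost without SCADD replicate 1 (edgeR adjusted p = 0.133), without SCADD replicate 2 (0.145) and without the filter on low counts (0.163). Mup7 had 25203, 21347 and 73083 unique counts in SCADD and 31, 23 and 33 in WT. It measured 4667, 4282 and 16046 TPM in SCADD and 3.72, 3.51 and 4.65 TPM in WT, and differed by 10.92 on the log2 scale (SE 0.97, edgeR adjusted p = 0.00264).

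Mup9 had 20383, 24291 and 46993 unique counts in SCADD replicates 1, 2 and 3 and 0, 1 and 0 in WT. The ratio of pooled counts, scaled by library totals, was 116176 with an exact 95% counting interval of 20851 to 4588760 (edgeR adjusted p = 0.000135). Its level was 13906, 17417 and 28738 TPM in SCADD and 0, 0.27 and 0.54 TPM in WT, and in SCADD it ranked 12, 9 and 9 among all genes. RSEM gave Mup9 an average transcript length of 439 to 467 bases in SCADD, where Mup22 had 861, so a read of Mup9 counts for more TPM. Mup17 had 14843, 17711 and 30055 unique counts in SCADD and 20, 9 and 21 in WT. It measured 3096, 3966 and 6563 TPM in SCADD and 2.04, 2.02 and 2.5 TPM in WT, and its log2 fold change was 10.73 (SE 0.62, edgeR adjusted p = 9.33e-05). Mup7 and Mup17 were the copies of the set with more than 2 unique reads in WT.

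For a second group of copies RSEM gave high levels on few unique reads. Mup22 measured 11864, 14119 and 22784 TPM in SCADD replicates 1, 2 and 3 and 0.18, 0 and 0 TPM in WT. The SCADD level rests on 181086, 179034 and 305262 RSEM reads but on 262, 246 and 294 unique counts, a share of 0.121 unique reads per 100 RSEM reads. Mup1 measured 8836, 11216 and 15916 TPM in SCADD and 0 in all WT libraries. It had 1239, 1159 and 1616 unique counts in SCADD, 0.759 per 100 RSEM reads. Both were called higher, Mup1 at least 1696-fold (edgeR adjusted p = 0.000447) and Mup22 at least 339-fold (edgeR adjusted p = 3.19e-05) by the same floor.

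Mup2, Mup14 and Mup10 were of the same kind. Mup2 measured 3867, 4756 and 7216 TPM in SCADD replicates 1, 2 and 3 and 0, 0.23 and 0 TPM in WT, with 2232, 2608 and 4183 unique counts in SCADD and 0, 1 and 0 in WT. Mup14 measured 1151, 1576 and 2624 TPM in SCADD and 0 in WT, and had 1112, 1025 and 1812 unique counts in SCADD. Mup10 measured 1697, 1919 and 2676 TPM in SCADD and 0 in WT on 104, 110 and 132 unique counts in SCADD. Each SCADD library was far above each WT library for all 3. Mup2 had a ratio of pooled counts, scaled by library totals, of 11436 (exact 95% counting interval 2052 to 451728, edgeR adjusted p = 0.000264). Mup14 was at least 1668-fold higher (edgeR adjusted p = 0.00984) and Mup10 at least 146-fold higher (edgeR adjusted p = 0.00012). The call of Mup14 was lost without SCADD replicate 2 (edgeR adjusted p = 0.0987).

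The other 7 copies of the set, Mup18 among them, had lower TPM. Mup16 measured 146, 305 and 533 TPM in SCADD replicates 1, 2 and 3 and 0.36, 0.55 and 0.49 TPM in WT, and it was called higher (edgeR adjusted p = 0.0124). That call was lost without WT replicate 3 (edgeR adjusted p = 0.0718), without SCADD replicate 2 (0.0652) and with limma-voom (0.0705). Mup11 measured 37.6, 42.4 and 87.4 TPM in SCADD and 0.19, 0 and 0 TPM in WT, and was called higher on 171 unique counts in SCADD and 0 in WT (edgeR adjusted p = 0.000365). Mup8 measured 32.3, 31 and 106 TPM in SCADD and 0, 0 and 0.21 TPM in WT. It was not called on 43, 50 and 175 unique counts in SCADD and 0 in WT (edgeR adjusted p = 0.0992). It was called on RSEM expected counts (edgeR adjusted p = 0.0201). On unique counts it was called by DESeq2 (adjusted p = 4.47e-06), by limma-voom (0.0218), with the replicate block (edgeR, 8.05e-06) and without SCADD replicate 3 (edgeR, 0.000121). Mup13 measured 6.94, 8.9 and 20.7 TPM in SCADD and 0 in WT and was not called (edgeR adjusted p = 0.0704 on unique counts and 0.0527 on RSEM counts). In 6 other settings on unique counts it was called, with adjusted p of 1.26e-05 (DESeq2), 0.011 (limma-voom), 0.00111 (edgeR, no filter), 3e-05 (edgeR, replicate block), 0.0381 (edgeR, without SCADD replicate 1) and 0.000461 (edgeR, without SCADD replicate 3). Mup15, at 6.14, 5.31 and 27.1 TPM in SCADD, and Mup19, at 43.8, 19.3 and 261 TPM in SCADD, were at 0 TPM in WT. With 11 and 29 unique counts over the SCADD group they did not pass the filter. On RSEM expected counts they were not called (edgeR adjusted p = 0.143 for Mup15 and 0.21 for Mup19).

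Mup18 had more unique reads than RSEM reads. It had 594, 1239 and 1815 unique counts in SCADD replicates 1, 2 and 3 and 0 in WT, which is at least 1541-fold higher (edgeR adjusted p = 0.0298). RSEM gave it 17.4, 6.43 and 52.9 expected reads, or 1.04, 0.46 and 3.6 TPM, in SCADD and 0 in WT, and it was not tested on RSEM counts. The call of Mup18 was lost without WT replicate 3, without SCADD replicate 2, without SCADD replicate 3 and without the filter (edgeR adjusted p = 0.0741 to 0.298).

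**Figure D3:**
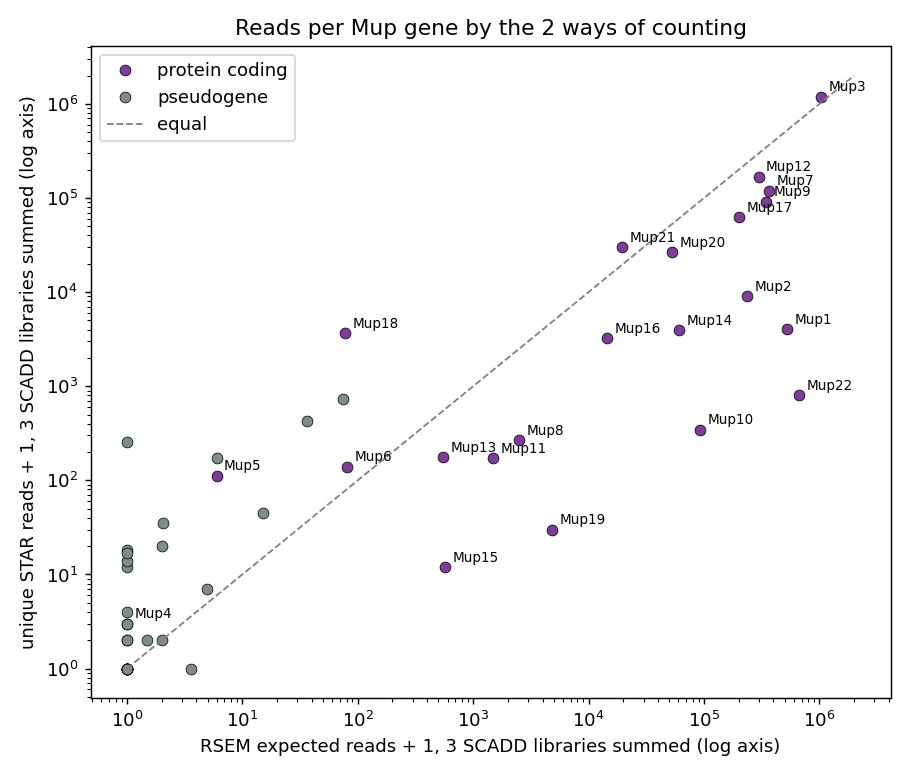
Unique STAR reads against RSEM expected reads per member, each summed over the 3 SCADD libraries plus 1, on log axes. Purple points are coding genes, grey points pseudogenes, and the dashed line marks equal numbers. Mup3 lies near the line, Mup22, Mup1 and Mup10 lie far below it, and Mup18, Mup5 and most pseudogenes lie above it.

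How far a copy's annotated transcripts can be told apart varied within the set. Of all 100-base windows of the annotated transcripts of Mup22 and of Mup19, 0% were found in no other gene. The share was 2.66% for Mup15, 12.9% for Mup18, 22.5% for Mup12, 23.9% for Mup7, 28.1% for Mup9, 40.6% for Mup17 and 44.3% for Mup1. It was 97.8% for Mup3, 95.5% for Mup21 and 61.2% for Mup20, and 98.7% to 100% for Mup4, Mup5 and Mup6. Over the 21 coding members with RSEM reads in SCADD, Spearman's rho between this share and the unique reads per 100 RSEM reads was 0.473, a description across genes that share sequence and libraries. Mup1, with 44.3% and 0.759, and Mup12, with 22.5% and 56.7, show that the 2 did not go together for every copy.

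The calls depended on the measure for part of the members. On RSEM expected counts 19 members were tested, 13 were called higher and 0 lower, and 12 of the 13 were also called on unique counts. Mup7, Mup2, Mup9, Mup1, Mup10, Mup11, Mup22 and Mup17 were called higher in each of the 15 other settings tried. Mup12 was called in 12 of 15, Mup16 in 12, Mup18 in 10 and Mup-ps13 in 10.

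Mup4, Mup5 and Mup6 had few reads. Mup4, known from nasal tissue, had 0, 0 and 2 unique counts in SCADD and 2, 1 and 1 in WT, and 0 TPM in all libraries. Mup5, known from salivary gland, had 34, 32 and 45 unique counts in SCADD and 0, 0 and 1 in WT. Its ratio of pooled counts, scaled by library totals, was 141 (exact 95% counting interval 24.7 to 5606), and it was called higher (edgeR adjusted p = 0.000351). RSEM gave it 0, 4 and 1 reads in SCADD and 0 in WT. Mup6 had 44, 22 and 73 unique counts in SCADD and 2, 1 and 2 in WT, a difference of 5.10 on the log2 scale (SE 0.71, edgeR adjusted p = 0.00254). In TPM it reached 1.65, 0.44 and 3.48 in SCADD and 0.11, 0 and 0 in WT. The levels of Mup4, Mup5 and Mup6 were thus far below those of Mup3.

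Pseudogenes carried few reads. They summed to 332, 706 and 724 unique counts in SCADD replicates 1, 2 and 3 and 135, 99 and 184 in WT, and to 19, 62.9 and 55.2 RSEM reads in SCADD and 0 in WT. Of the 27, 9 had 0 unique counts in every library. Mup-ps4 had 157, 249 and 334 unique counts in SCADD and 0 in WT, at least 313-fold higher (edgeR adjusted p = 0.0103). Mup-ps13 had 57, 200 and 168 in SCADD and 0 in WT (edgeR adjusted p = 0.0349), and Mup-ps10 had 25, 104 and 44 in SCADD and 0 in WT (edgeR adjusted p = 0.0161). The call of Mup-ps4 was lost without SCADD replicate 2 (edgeR adjusted p = 0.136) and that of Mup-ps10 without SCADD replicate 3 (0.196). The call of Mup-ps13 was lost without WT replicate 2 (0.0504), WT replicate 3 (0.066), SCADD replicate 2 (0.206) or SCADD replicate 3 (0.213). In unique CPM Mup-ps10 was highest in SCADD replicate 2, at 5.11 against 1.05 in SCADD replicate 1 and 2.6 in SCADD replicate 3. Mup-ps19 had 10, 0 and 6 in SCADD and 19, 15 and 20 in WT, which was not called (edgeR adjusted p = 0.2). Most WT pseudogene reads lay in Mup-ps22, which is annotated on chromosome 11. It had 68, 63 and 124 unique counts in SCADD and 116, 84 and 163 in WT, a difference of -0.09 on the log2 scale (SE 0.39, edgeR adjusted p = 0.929), and 0 RSEM reads in every library.

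The shares of the family that RSEM gave in TPM were alike in the 3 SCADD animals for several copies and not for others. Mup9 held 19.6% ± 0.795, Mup22 16% ± 0.608 and Mup1 12% ± 1.21 of the summed TPM in SCADD livers (SD, n = 3). Few of the reads behind the Mup22 and Mup1 shares were unique, so these shares rest mostly on how RSEM divided shared reads. Mup7 held 7.39% ± 3.04 and Mup12 6.05% ± 1.99. These 2 were 4.1-fold and 4.25-fold higher in SCADD replicate 3 than the mean of SCADD replicates 1 and 2 in unique CPM. The same ratio was 1.5 for Mup22, 1.75 for Mup1, 1.92 for Mup3, 2.71 for Mup9 and 4.85 for Mup8. Replicate 3 was the highest SCADD library in unique CPM for each of the 22 coding members. It is also the library with the most unmapped reads and the lowest hepatocyte marker sum, and the part of these in the values was not tested.

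**Figure D4:**
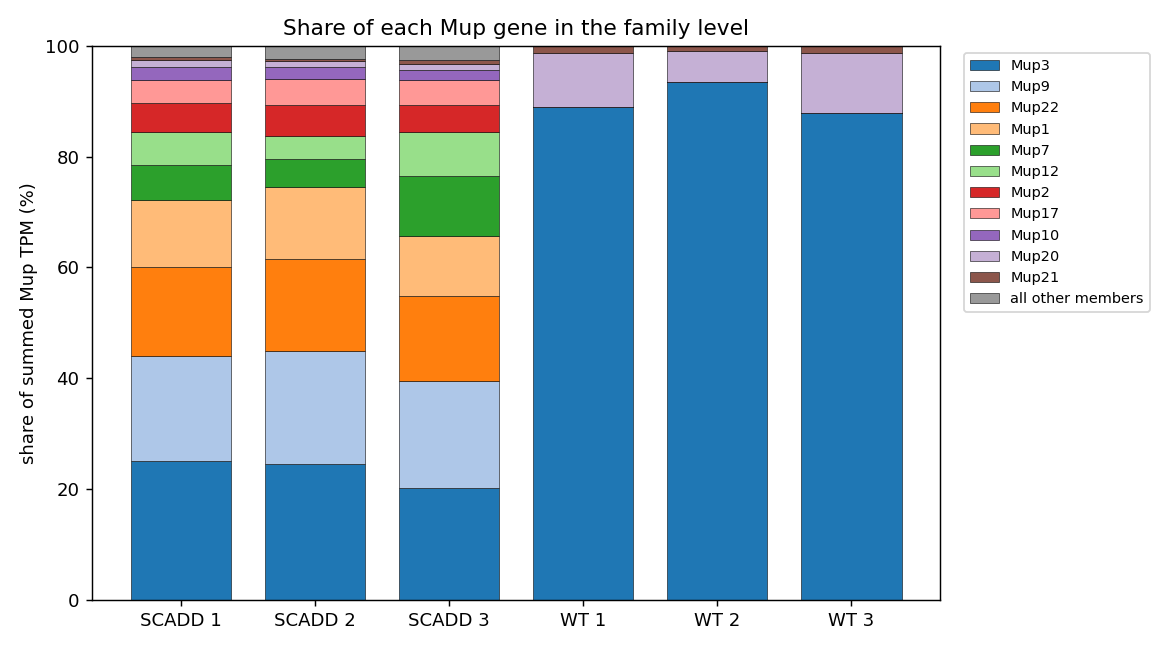
Share of the summed Mup TPM held by each member in every library, in percent, with the 3 SCADD libraries left of the 3 WT libraries. In WT nearly all of each bar is Mup3 and Mup20. In SCADD Mup3, Mup9, Mup22 and Mup1 are the widest bands, and Mup7 and Mup12 are widest in SCADD replicate 3.

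Genes beside the family were tested for the same contrast. Of 53 other genes within 1 Mb of the chromosome 4 span, 25 were tested, 3 were called higher and 0 lower (edgeR; 1 lower at an unadjusted p under 0.05, and 0 with DESeq2). The median log2 fold change was 0.06 in them and 0.00 over all genes tested, of which 4.22% were called higher and 2.8% lower. In either direction 6 neighbouring genes had an unadjusted p under 0.05 (edgeR), against 3058 of all 13498 tested genes. The 3 called neighbouring genes lie inside the span. Gm13773 and Gm13775 overlap Mup-ps6 and Mup-ps16 on the same strand, so their reads and those of the pseudogenes may be split by the annotation. Gm13773 had 11, 14 and 17 unique counts in SCADD and 0 in WT, and Gm13775 had 13, 30 and 23 in SCADD and 0 in WT. Gm13773 and Gm13775 thus passed the filter on low counts only through their SCADD reads and could only be called higher. Gm12909, an RNA annotated as antisense that starts beyond the 5′ end of Mup3 on the other strand, had 535, 652 and 634 unique counts in SCADD and 286, 262 and 201 in WT. Its log2 fold change was 1.64 (SE 0.23, edgeR adjusted p = 0.0024).

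A list of growth hormone signalling genes, hormone receptors and liver factors was drawn up for Mup or sex-biased liver transcription. Of these 30 genes, called regulators here, 29 were tested, 3 were called higher and 0 lower (edgeR; 1 lower at an unadjusted p under 0.05, and 0 with DESeq2). For all tested genes the shares were 4.22% called higher and 2.8% called lower. In either direction 9 regulators had an unadjusted p under 0.05 (edgeR), against 3058 of all 13498 tested genes. Zhx2 had 84, 89 and 41 unique counts in SCADD replicates 1, 2 and 3 and 2, 5 and 3 in WT. Its log2 fold change was 4.65 (SE 0.39, edgeR adjusted p = 0.000105). In unique CPM Zhx2 measured 3.51, 4.38 and 2.42 in SCADD replicates 1, 2 and 3. The part of Zhx2 in the Mup values was not tested. Tox, a nuclear HMG-box factor, differed by 1.80 on the log2 scale (SE 0.28, edgeR adjusted p = 0.00366). Ghr, the growth hormone receptor, differed by 0.41 on the log2 scale (SE 0.16, edgeR adjusted p = 0.159). Stat5b, the signal transducer of that receptor, differed by -0.08 (SE 0.19, edgeR adjusted p = 0.842) and its target Igf1 by -0.32 (SE 0.16, edgeR adjusted p = 0.258).

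Other genes with a sex bias in mouse liver did not move one way. Of 18 tested male-biased genes 2 were called higher and 5 lower, against 4.22% higher and 2.8% lower of all tested genes. At an unadjusted p under 0.05 (edgeR) there were 9 male-biased genes, of which 7 were lower. Among all 13498 tested genes there were 3058 at that p, in either direction. Hsd3b5, a male-biased steroid enzyme, had 1355, 842 and 633 unique counts in SCADD and 7245, 4082 and 9494 in WT. Its log2 fold change was -2.57 (SE 0.25, edgeR adjusted p = 0.000317). Selenbp2 fell by 2.80 on the log2 scale (edgeR adjusted p = 0.00207) and Cspg5 by 1.60 (edgeR adjusted p = 0.0064). Susd4 had a log2 fold change of 2.22 (edgeR adjusted p = 0.00357), and Cyp4a12a, a fatty acid hydroxylase, of 0.63 (SE 0.15, edgeR adjusted p = 0.0301). Of 16 tested female-biased genes 2 were called higher and 1 lower, and 6 had an unadjusted p under 0.05 (edgeR), 3 of them lower. The log2 fold change was 4.17 for Acot3 (edgeR adjusted p = 2.32e-06) and 2.15 for Slc22a26 (edgeR adjusted p = 0.0104), the 2 called higher. Cyp2b13 was not called (log2 fold change 2.64, SE 1.44, edgeR adjusted p = 0.354), with 124 of its 134 SCADD counts in replicate 2.

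Among other genes of the lipocalin fold 8 were tested, 2 were called higher and 0 lower (edgeR; 0 lower at an unadjusted p under 0.05, and 0 with DESeq2). Over all tested genes 4.22% were called higher and 2.8% lower. In either direction 5 of these lipocalin genes had an unadjusted p under 0.05 (edgeR), against 3058 of all 13498 tested genes. Obp2a, an odorant-binding protein gene, had 462, 832 and 293 unique counts in SCADD and 0, 2 and 3 in WT. Its log2 fold change was 8.50 (SE 0.59, edgeR adjusted p = 0.00015). Lcn2, an iron-siderophore binding lipocalin of the acute phase, had 45, 48 and 34 unique counts in SCADD and 14, 15 and 23 in WT, a difference of 1.61 on the log2 scale (SE 0.29, edgeR adjusted p = 0.0085). Obp2a is annotated on chromosome 2, outside the Mup span.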

How the data were processed

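Liver poly(A) RNA of 3 SCADD and 3 WT mice was sequenced. The authors deposited 2 tables per library. One holds whole-number read counts per gene as STAR 2.7.6a made them, not normalised. The other holds expected counts and TPM, estimated by the authors with RSEM 1.3.3. The tool versions and the build GRCm38 are given per the submitters' processing notes, and the annotation release is not given in the sources used here. TPM was scaled by the authors to the same total in each library. FPKM, also deposited, was left unused. Of the stranded count columns, column 4 was taken because it held over 90% of stranded reads (96.8% to 97.3%). The 4 summary rows were left out of library sizes. Across libraries 13.6% to 36.6% of reads were unmapped, 10.1% to 13.1% mapped to several places and 1.47% to 2.17% lay outside genes.

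Symbols, coordinates and transcripts came from GENCODE M21 (55227 of 55487 IDs matched) and promoters from RefSeq (GRCm38.p6). CPM is unique counts over the gene total. The counts were tested in R 4.3.3 with edgeR 4.0.16: filterByExpr with a minimum count of 10, TMM, a robust quasi-likelihood fit of group on all 6 libraries, Benjamini-Hochberg adjustment over tested genes and a threshold of 0.05. SE was taken as the log2 difference over the root of F, an approximation. The prior count was 0.125. The test was checked on simulated counts drawn from the WT means. Their folds were far below those of the called members, which the check does not cover. Against 0 WT counts, folds use a floor of 3 counts over the group, and where WT had 1 to 3 counts an exact 95% counting interval is given; both cover counting error only. The labels give no litters. Other settings were 2 other scalings (RLE, upper quartile), 2 other filters (none, or 1 CPM in 3 libraries), DESeq2 1.42.0, limma-voom (limma 3.58.1), the unstranded column, RSEM counts rounded to whole numbers, a replicate block and leaving out each library.

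Members with a mean of at least 1 CPM, or 10 TPM in any library, were named, as were the called genes with the 4 smallest p of each other list and 8 genes picked by name. Mup4, Mup5 and Mup-ps19 were added outside this rule, after their values were seen. Of the genes this rule selects, 2 are not reported here. The members and gene lists were chosen with earlier results of these data known.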

Additional observations from a re-analysis of the deposited data

How the results depend on the processing

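The 17 members called higher numbered 11 to 19 when 1 library was left out, with 11 without SCADD replicate 2, and 13 to 24 in the other settings. Members called lower numbered 0 to 1 when 1 library was left out and 1 with the replicate block. The calls were Mup3 without SCADD replicate 3 and Mup20 with the block (-1.42 on the log2 scale, edgeR adjusted p = 0.000479). The numbers are not taken to pair the animals, since the labels do not state a pairing. The deviations of same-numbered libraries had correlations of 0.0598, 0.0404 and 0.106, against -0.121 to 0.057 for the others. Of the 6 libraries, 5 correlated best with their own number, so a pairing is not excluded. With the replicate block 1148 genes were called. The summed TPM difference was 42845 to 80193 when 1 library was left out. The difference in summed unique CPM was -7173 to 6483, and -81.9 without WT replicate 2. With 1 library left out, Mup21 ranged from -0.17 to 1.01 and Mup-ps22 from -0.70 to 0.16 on the log2 scale. Mup21 turned negative without SCADD replicate 3. Mup-ps22 turned positive when WT replicate 3 (0.16), or SCADD replicate 1 (0.16) or 2 (0.12), was left out. The cause of these changes was not tested.

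Over all genes 947 were called, 569 higher and 378 lower. Without a filter there were 1702, 950 higher and 752 lower. When 1 library was left out there were 395 to 1590, 240 to 909 higher and 155 to 681 lower. Without a filter 5 neighbouring genes, 5 regulators, 5 female-biased genes and 4 lipocalins were called. With a filter of 1 CPM 1 neighbouring gene was called, and with DESeq2 5 female-biased genes. Leaving out 1 library gave 3 to 5 regulators. Few unique reads limit the statements on Mup4, Mup5, Mup6, Mup8, Mup10, Mup11, Mup13, Mup15, Mup19, Mup22 and the pseudogenes. For Mup1 few of the RSEM reads were matched by unique reads. Reads cannot be traced to copies that the reference lacks.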
